A study of Mus musculus with 6 samples.

Results

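Hic1, Socs3 and Dusp6 are 3 genes that restrain growth signals, and they were followed through DNA methylation in mouse bone marrow cells that carried wild-type IDH1, mutant IDH1 or were exposed to R-2HG. They were represented by every listed 500 bp window whose nearest transcription start site, as the authors annotated it, belonged to one of them. This gave 8 distinct windows of 2135 in all, 5 for Hic1, 1 for Socs3 and 2 for Dusp6, and 12 entries over the tables of the 3 comparisons. The genes were selected on the deposited differences themselves, that is, on being listed with a difference of at least 25 percentage points, so these differences are a description and were not tested.

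The measurements came from reduced representation bisulfite sequencing (RRBS), which reads cytosine methylation in fragments cut by the enzyme MspI and so covers CpG-rich sequence most densely. All 6 libraries were made from C57BL6 bone marrow cells immortalised with HoxA9, a homeobox factor that keeps myeloid progenitors self-renewing, and carried in irradiated mice. The IDH1wt group (2 libraries) was transduced with pSF91-IDH1wt-IRES-EGFP, and the IDH1mut group (2 libraries) with pSF91-IDH1mut-IRES-GFP, which the authors' table names R132C. The R-2HG group (2 libraries) carried an empty vector, and its mice received 1 mg of R-2HG per day for 4 weeks. GFP-positive cells, those that carry a vector, were sorted after 4 weeks. IDH1 was expressed from a vector on top of the cells' own gene. The R-2HG and IDH1wt groups differ in vector as well as in treatment, so the effects of vector and metabolite cannot be told apart in that comparison. In R-2HG against IDH1mut, vector and treatment likewise differ together and cannot be told apart. An untreated empty-vector group was not analysed here. Whether a group's 2 libraries stem from different animals is not stated.

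HIC1 (hypermethylated in cancer 1) is a zinc-finger transcriptional repressor whose CpG-rich gene is often methylated in human tumours. SOCS3 is induced by STAT3 and shuts down signalling from receptors that use gp130 and from the G-CSF receptor, which makes it a brake on cytokine-driven myelopoiesis. DUSP6 is a cytoplasmic phosphatase that is induced by ERK and dephosphorylates it. Mutant IDH1 makes R-2HG, a metabolite that competes with 2-oxoglutarate at dioxygenases, among them the TET enzymes that oxidise 5-methylcytosine. Bisulfite sequencing does not separate 5-methylcytosine from 5-hydroxymethylcytosine, so both count as methylation. DNA methylation is not expression, and no RNA level was measured here.

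The start regions of the 3 genes are printed to show what an MspI digest can read at them, since no listed window reached the start site the authors annotated. The RefSeq table of promoters (build GRCm38.p6, 250 bases before to 50 after each start) held 4 for these genes, 2 of them for Hic1. The sequences run 5′ to 3′ on the strand of the gene, and capitals mark CCGG, the site cut by MspI, which reads the same on both strands.
Hic1, first start, chr11:75170206-75170505, minus strand: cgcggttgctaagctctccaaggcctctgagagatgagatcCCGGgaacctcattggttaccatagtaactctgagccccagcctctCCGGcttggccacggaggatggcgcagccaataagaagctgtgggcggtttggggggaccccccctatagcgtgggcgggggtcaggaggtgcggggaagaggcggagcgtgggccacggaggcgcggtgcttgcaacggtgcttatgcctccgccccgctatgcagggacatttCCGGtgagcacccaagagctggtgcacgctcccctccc
Hic1, second start, chr11:75168103-75168402, minus strand: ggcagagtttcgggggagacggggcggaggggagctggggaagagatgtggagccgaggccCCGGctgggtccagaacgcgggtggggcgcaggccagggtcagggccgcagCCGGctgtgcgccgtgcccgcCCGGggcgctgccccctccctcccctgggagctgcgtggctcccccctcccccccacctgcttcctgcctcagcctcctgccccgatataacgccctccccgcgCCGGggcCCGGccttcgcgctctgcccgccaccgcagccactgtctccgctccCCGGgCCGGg
Socs3, chr11:117969317-117969616, minus strand: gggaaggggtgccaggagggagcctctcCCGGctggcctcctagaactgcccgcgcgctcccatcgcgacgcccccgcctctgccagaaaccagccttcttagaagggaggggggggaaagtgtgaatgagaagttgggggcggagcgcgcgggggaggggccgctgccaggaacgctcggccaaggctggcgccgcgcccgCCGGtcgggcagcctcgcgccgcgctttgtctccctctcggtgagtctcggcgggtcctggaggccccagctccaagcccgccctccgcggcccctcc
Dusp6, chr10:99262981-99263280, plus strand: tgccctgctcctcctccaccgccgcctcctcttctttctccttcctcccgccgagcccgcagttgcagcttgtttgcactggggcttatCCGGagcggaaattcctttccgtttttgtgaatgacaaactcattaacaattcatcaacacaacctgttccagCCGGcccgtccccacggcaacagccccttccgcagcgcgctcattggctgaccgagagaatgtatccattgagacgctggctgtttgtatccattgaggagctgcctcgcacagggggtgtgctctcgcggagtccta
CCGG occurred 3 and 7 times in the Hic1 promoters and 2 times each in those of Socs3 and Dusp6, whereas 52.8% of the 32851 promoters in the table held at least 1 such site. The protocol selected inserts of 40 to 220 bp, and each of the 4 promoters held at least 1 stretch between neighbouring sites within that range. The stretches measured 46 and 175 bp at the first Hic1 start, 51, 104 and 46 bp at the second, 174 bp at Socs3 and 73 bp at Dusp6. Such a stretch lay within 26.7% of all promoters. The promoters held 20 and 29 CpGs for Hic1, 31 for Socs3 and 19 for Dusp6, against a median of 7 over all promoters. These counts describe the reference sequence, and whether the libraries had reads there is unknown. The windows below are given in the authors' build, mm9, and the 2 builds' positions were not converted. Which of the 2 Hic1 starts is that of the authors' transcript was therefore not determined.

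Every listed window of the 3 genes had higher methylation in IDH1mut or R-2HG cells than in IDH1wt cells, under the reading of the sign described next. In the authors' deposited table for IDH1mut against IDH1wt, 7 windows were gains and none a loss, beside 69.3% gains among all 1493 windows of that table. For R-2HG against IDH1wt, the authors' deposited table held 5 gains and no loss for these genes, beside 68.0% gains among its 750 windows. Many of these windows overlap, and with windows within 1000 bp joined Hic1 and Dusp6 each form 1 stretch per comparison. With so few separate stretches, nothing about the genes is read from all of them being gains. None of the 3 genes appeared in the authors' deposited table of R-2HG against IDH1mut, where 35.5% of 603 windows were gains. Both comparisons against IDH1wt use the same IDH1wt libraries, so their values are set side by side and are not independent of each other. The tables hold only windows with a difference of at least 25 points, and neither a group's own methylation level, a value per library nor a read depth stands beside the difference, so no replicate error can be given. The authors' p and q were 0 as deposited at all 12 entries, as was p at 70.9%, 68.7% and 81.9% of the windows of the 3 tables.

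The direction depends on how the deposited sign is read. The deposited differences of the IDH1wt with R-2HG table are negative at these genes and those of the IDH1wt with IDH1mut table positive. Differences among 3 groups must add up, and the table of IDH1wt with R-2HG was therefore reversed: only then did the 3 windows shared by all tables leave a residual of 0, and only then did the missing difference stay under 25 points at all 705 windows found in exactly 2 tables. Without the reversal, R-2HG and IDH1mut would differ by -60.7 to -66.6 points at the Hic1 and Dusp6 windows found in both tables, yet the direct comparison lists none of them. The addition leaves the whole set free to be turned round, in which case each gain here is a loss. The reading as gains takes the group named second in 2 of the 3 tables as the treated one.

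At the repressor gene Hic1, both IDH1mut and R-2HG cells gained methylation in a stretch just downstream of the start site the authors annotated. Hic1 has another start in the RefSeq table, from which the distances given here do not hold. Its 5 distinct windows covered 1500 bp of chromosome 11 (mm9, 74979251 to 74980750), and their near edges lay 905 to 1905 bp downstream of the start of transcript NM_001098203, on the minus strand. An mm9 gene annotation was not used here, so exon, intron and UTR are not given. For IDH1mut the differences were 32.3, 31.6, 29.7 and 35.5 points at 1155, 1405, 1655 and 1905 bp from the start per the authors' deposited table. The window farthest from the start had the highest of the 4 values and its overlapping neighbour the lowest, 5.85 points apart although they share 250 bp. For R-2HG the differences were 25.6, 28.4 and 27.5 points at 905, 1155 and 1905 bp per the authors' deposited table. The first of these lay just inside the listing threshold of 25 points.

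Windows at 1155 and 1905 bp were listed for both, and there the R-2HG value was the lower one. Subtraction put R-2HG at -3.94 and -8.05 points relative to IDH1mut in these windows. Such remainders are selected to be small where the direct comparison lists nothing, and none reached 25 points. Over the 385 windows of this kind in the whole series their median was -3.04 points, with 75.1% below 0. The windows at 1405 and 1655 bp were listed for IDH1mut and not for R-2HG. If they were read in every library and missed only the threshold on the difference, R-2HG would lie between 6.56 and 25 points above IDH1wt at 1405 bp and between 4.65 and 25 points at 1655 bp. By the same reasoning IDH1mut would lie between 0.57 and 25 points above IDH1wt at 905 bp, where R-2HG alone was listed. A window absent from a list is thus not shown to be unchanged at Hic1.

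Hic1 had more listed windows than most genes. With 4 windows it was among the 35 of 881 genes (3.97%) with 4 or more in the authors' deposited table for IDH1mut, where 46.4% of genes had a single one. Its windows lay closer to the start site than those of the other 2 genes. Within 2 kb of a start site lay 23.8% of all windows for IDH1mut and 19.3% for R-2HG. For IDH1mut the 4 windows of Hic1 overlap their neighbours by 250 bp and are not 4 independent measurements. For R-2HG only the windows at 905 and 1155 bp overlap, and the one at 1905 bp shares no bases with them. These 3 form 1 stretch when windows within 1000 bp are joined, and they are not counted as 3 independent measurements.

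**Figure D1:**
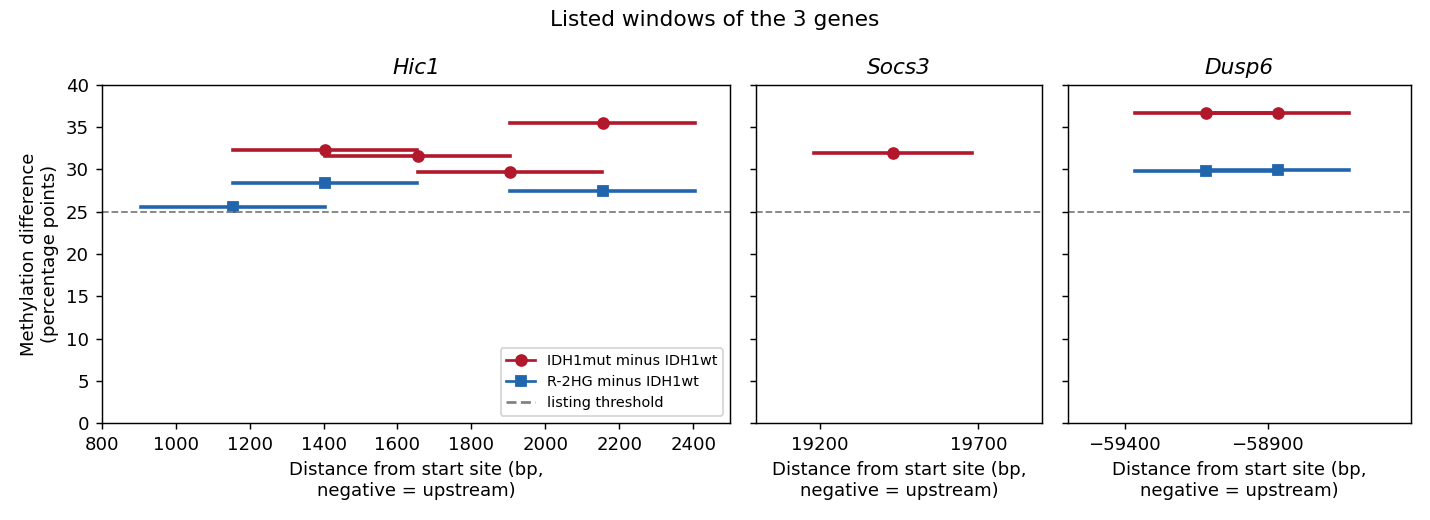
Methylation difference against IDH1wt (percentage points, vertical axis) of each listed window of Hic1, Socs3 and Dusp6 by its distance from the start site (bp, horizontal axis, a separate range for each gene). Bars span the windows, red circles are IDH1mut and blue squares R-2HG, and the dashed line is the threshold of 25 points; at Hic1 and Dusp6 the blue values lie below the red ones in the same windows, and Socs3 has a single red window at 31.9 points.

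The cytokine brake Socs3 was listed for IDH1mut and not for R-2HG. Its single window gained 31.9 points per the authors' deposited table for IDH1mut (chromosome 11, mm9, 117811001 to 117811500), 19181 bp downstream of the start of transcript NM_007707 on the minus strand. No neighbouring window was listed beside it, in either direction. The absence from the R-2HG table is not a tested difference between the groups: the window was not listed in the direct comparison of R-2HG with IDH1mut either. If it was read throughout and missed only the threshold on the difference, R-2HG would lie between 6.92 and 25 points above IDH1wt. At this distance the symbol says which start site is nearest and not that the window belongs to Socs3; in the RefSeq gene order its protein-coding neighbours are Tha1 and Pgs1.

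The ERK phosphatase gene Dusp6 had the highest gains of the 3 genes, in a region far upstream. As at Socs3, the symbol says which start site is nearest and not that the windows belong to Dusp6. Its 2 overlapping windows covered 750 bp of chromosome 10 (mm9, 98666501 to 98667250), and their edges nearest to the start of transcript NM_026268, on the plus strand, lay at -58865 and -58615 bp, upstream of it. For IDH1mut both windows differed by 36.7 points per the authors' deposited table, with 0.0074 points between them. For R-2HG the differences were 29.8 and 29.9 points per the authors' deposited table. The 2 windows therefore count as 1 measurement. Subtraction gave R-2HG -6.84 and -6.76 points relative to IDH1mut. Beyond 50 kb from a start site lay 31.1% of all windows for IDH1mut and 31.2% for R-2HG. Galnt4, a glycosyltransferase gene, and Poc1b, a centriole gene, lie on the side of lower coordinates from Dusp6 in the RefSeq gene order.

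Set among all listed gains, the 3 genes were of middling size. Their 7 windows had a median of 32.3 points for IDH1mut, beside 30.6 points over all 1035 gains per the authors' deposited table. For R-2HG their 5 windows had a median of 28.4 points, beside 29.4 over 510 gains per the authors' deposited table. Dusp6 ranked highest, at places 253 and 254 for IDH1mut and 243 and 245 for R-2HG. Socs3 stood at place 435 of the IDH1mut gains. Hic1 stood at places 294 to 575 for IDH1mut and 303 to 463 for R-2HG, so its window at 905 bp was among the smallest R-2HG gains.

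**Figure D2:**
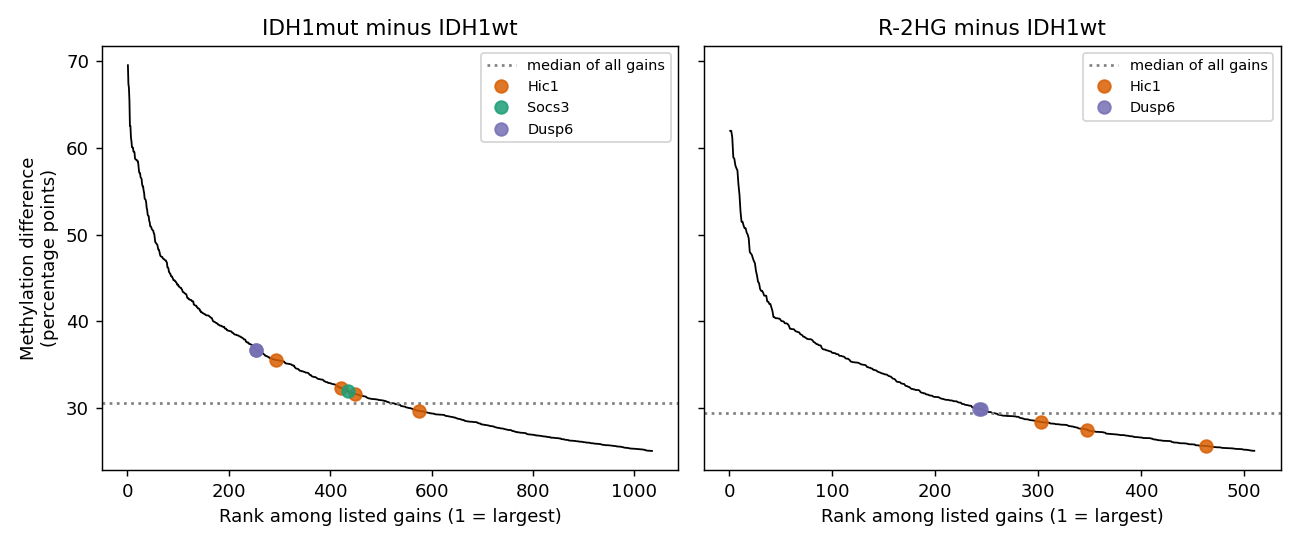
Every listed gain against IDH1wt (percentage points, vertical axis) in order of size (rank, horizontal axis) for IDH1mut on the left and R-2HG on the right. Coloured points mark the windows of the 3 genes and the dotted line the median of all gains, 30.6 and 29.4 points; for IDH1mut 1 of the 7 windows, at Hic1, lies below that line, and for R-2HG all 3 of Hic1 do.

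Other listed windows around the members were counted. The density of listed windows over the genome was not computed, so whether these counts are low or high is not known. Within 500 kb on either side of the Dusp6 windows and of the Socs3 window no window of another gene was listed in any comparison. Within 500 kb of the Hic1 windows, 3 windows of other genes were listed for each of IDH1mut and R-2HG, and none in the direct comparison. Rtn4rl1, a Nogo receptor paralogue, gained 28.3 points for IDH1mut and 30.8 points for R-2HG per the authors' deposited tables, in a window 46.3 kb from those of Hic1. Pitpna, which encodes a phosphatidylinositol transfer protein, was lower in 2 overlapping windows, 432.25 and 432.5 kb from those of Hic1. Each had -31.1 points for IDH1mut and -26.5 points for R-2HG per the authors' deposited tables, so they count as 1 measurement. Both directions therefore occurred within 500 kb of the Hic1 windows, with the loss toward the edge of that span.

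The wider pathways of the 3 genes were read from 6 lists with 156 genes, and those listed lay in both directions. For IDH1mut 10 of the 156 genes (6.41%) were listed, beside 3.38% of the 21896 protein-coding genes in the RefSeq table. For R-2HG 7 (4.49%) were listed beside 1.75%, and in the direct comparison 4 (2.56%) beside 1.46%. Which genes had windows that could be read is unknown, and the lists were chosen with earlier results known, so these shares are a description and nothing particular to the lists is read from them. The same holds for the counts of each single list below. A list gene stands for the nearest start site, also where a window lies far from it. The listed genes for IDH1mut were 5 gains and 5 losses, and 8 of their 17 windows were gains beside 69.3% over the whole table. Those gains had a median of 30.7 points and the losses of -36.8, beside 30.6 and -28.9 over all gains and losses of the authors' deposited table, and 3 of the 9 lost windows were overlapping ones of Dusp8. For R-2HG the genes were 5 gains and 2 losses, with 8 of 11 windows gains beside 68.0%. Their medians were 26.9 and -33.8 points, beside 29.4 and -28.6 over all gains and losses of that table. In the direct comparison all 4 genes were higher in R-2HG, with 6 of 6 windows gains beside 35.5% over the whole table. Of these windows 3 were overlapping ones of Dusp8. The 6 windows had a median of 29.6 points beside 29.0 points over all gains. Subtraction put R-2HG at -18.8 to -20.3 points against IDH1wt at Dusp8 and at -3.40 points at Gata4. R-2HG was thus not above IDH1wt in those windows.

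Of 18 cytokine feedback inhibitors other than Socs3, among them the rest of the SOCS family, none was listed in any of the 3 comparisons. At the shares of all protein-coding genes given above, a list of this size would hold less than 1 listed gene, so nothing is read from this count. Among 33 genes of cytokine receptors, JAKs, STATs and their targets, 2 were gains for IDH1mut and 2 for R-2HG, beside 3.38% and 1.75% of all protein-coding genes listed. Lifr, the LIF receptor that pairs with gp130, gained 31.6 and 43.9 points for IDH1mut per the authors' deposited table, 64461 and 64711 bp downstream of its start. For R-2HG its second window gained 35.6 points per the authors' deposited table. Bcl2l1, which encodes the survival protein Bcl-xL, gained 29.0 points for IDH1mut at 1669 bp downstream per the authors' deposited table. Osmr, the oncostatin M receptor that also pairs with gp130, gained 32.9 points for R-2HG at -32689 bp per the authors' deposited table. Lepr, the leptin receptor, was 27.6 points higher in R-2HG than in IDH1mut at 491 bp downstream, with q = 3.9e-10 per the authors' deposited table.

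Of 26 ERK feedback inhibitors other than Dusp6, 2 were losses for IDH1mut and 2 were gains for R-2HG. Beside these counts, 3.38% and 1.75% of all protein-coding genes were listed. Dusp8, a phosphatase known to act on JNK and p38 more than on ERK, was lower for IDH1mut in 3 windows, with -44.1, -48.7 and -50.7 points per the authors' deposited table. In the direct comparison these 3 windows were higher in R-2HG by 25.3, 28.8 and 30.3 points per the authors' deposited table. Subtraction gave R-2HG -18.8, -19.9 and -20.3 points against IDH1wt, the same direction as IDH1mut but under the listing threshold. Pebp1, an inhibitor of RAF kinase, was lower for IDH1mut by -28.5 and -26.0 points, at 45574 and 45324 bp downstream per the authors' deposited table. Dusp4, a nuclear phosphatase of ERK and JNK, gained 25.1 to 25.6 points for R-2HG in 3 windows from -2414 to -1914 bp per the authors' deposited table. Dusp9, which like Dusp6 encodes a phosphatase selective for ERK, gained 25.3 points for R-2HG at 473 bp downstream per the authors' deposited table. Neither was listed for IDH1mut, and all 4 of these R-2HG values lay within 1 point of the threshold.

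Of 30 genes of the RAS-ERK cascade and its targets, 1 was listed for each of IDH1mut and R-2HG, beside 3.38% and 1.75% of all protein-coding genes. Etv4, an ETS factor induced by ERK signalling, gained 31.4 points for IDH1mut at 1125 bp downstream per the authors' deposited table. Rps6ka3, a kinase activated by ERK, was lower for R-2HG with -25.3 points at -302 bp per the authors' deposited table. Among 18 genes that pair with HIC1, resemble it or were proposed as its targets, 2 were gains and 1 a loss for IDH1mut. For R-2HG 1 was a gain and 1 a loss. The shares of all protein-coding genes listed were again 3.38% and 1.75%. Ackr3, a scavenging receptor of CXCL12 and a HIC1 target in human cells, gained 29.9 and 28.4 points for IDH1mut, at -1555 and -1305 bp per the authors' deposited table. Sox9, a developmental transcription factor gene, gained 35.7 and 30.02 points for IDH1mut and 33.5 and 28.3 points for R-2HG, 207729 and 207979 bp from its start, per the authors' deposited tables. The cell cycle inhibitor gene Cdkn1c was a loss over its start site, with -36.5 and -37.0 points for IDH1mut and -33.8 and -36.7 points for R-2HG per the authors' deposited tables.

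Of 31 other tumour suppressors often hypermethylated in cancer, 2 were listed for IDH1mut, both as losses, and none for R-2HG. Of all protein-coding genes 3.38% and 1.75% were listed, so nothing about this list is read from these counts or from the direction. Gata4, a transcription factor gene, differed by -36.8 points at -27155 bp, and Esr1, the oestrogen receptor gene, by -28.9 points at 100246 bp downstream, per the authors' deposited table for IDH1mut. Both were higher in R-2HG than in IDH1mut, Gata4 by 33.4 points and Esr1 by 39.3 points in an overlapping window, per the authors' deposited table. Subtraction gave R-2HG -3.40 points against IDH1wt at the Gata4 window.

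**Figure D3:**
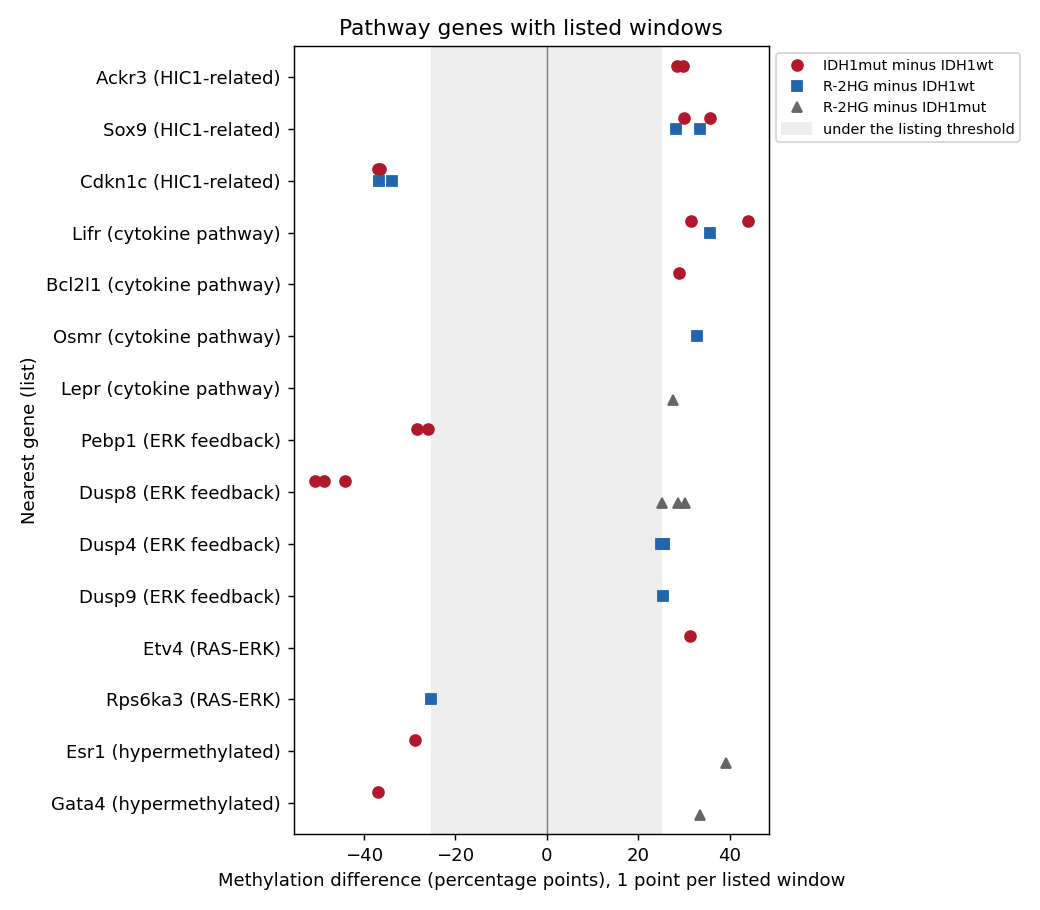
Methylation differences (percentage points, horizontal axis) of every listed window of the 6 pathway lists, by nearest gene (vertical axis, list in brackets). Red circles are IDH1mut minus IDH1wt, blue squares R-2HG minus IDH1wt and grey triangles R-2HG minus IDH1mut, and the shaded band is the range under 25 points that the tables leave out; Dusp8 reaches -50.7 points for IDH1mut, and Dusp4 and Dusp9 lie at the edge of the band.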

How the data were processed

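RRBS libraries of 6 samples in 3 groups of 2 were compared by the authors. The submitters' processing notes name Trim Galore, BSMAP, methylKit 0.9.1 and mm9. Which settings, coverage filter and test were used is not given in the sources used here. A row of the deposited tables holds, per the file headers, a window, p-value, q-value, methylation difference (a signed score in percentage points computed by the authors) and nearest start site. In the deposited tables the largest q was 0.00995. Read depth is unknown, and with no value per library no own test, SD or interval was possible. As the test is not known, whether the p-values take in any spread between the libraries is unknown. At most they cover the spread between these libraries, which may be technical.

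Windows repeated for equally near transcripts were counted once (64, 4 and 1 rows removed). In the numbering of windows 5, 2 and 1 numbers were absent, and those are not analysed here. Python 3.11.15 and pandas 2.3.3 were used. Gene symbols of the lists were matched through RefSeq (156 of 156 genes). The sign order and the joining of windows were tested on simulated data. The named genes are the 3 members, every listed gene of the 6 lists and every gene with a listed window within 500 kb. The members and lists were chosen with earlier results of these data known. Alternatives were thresholds on q and on the difference, joining of windows, distance, the summary over windows and the sign reading.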

Additional observations from a re-analysis of the deposited data

How the results depend on the processing

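Requiring q of at most 0.001 changed none of the counts of member windows or of list genes. With a difference of at least 30 points Hic1 and Dusp6 had 0 windows for R-2HG, while for IDH1mut 3 Hic1 windows were left. The list genes were then 3 gains and 3 losses for IDH1mut and 3 gains and 1 loss for R-2HG. Within 10 kb of the start site Socs3 and Dusp6 had 0 windows, and the list genes were 3 gains and 1 loss for IDH1mut, 2 gains and 2 losses for R-2HG and 1 gain in the direct comparison. Joined within 1000 bp, Hic1 and Dusp6 each formed 1 cluster per comparison. The median differences were 31.9 points for Hic1, 31.9 for Socs3 and 36.7 for Dusp6 with IDH1mut, and 27.5 for Hic1 and 29.9 for Dusp6 with R-2HG. With the largest difference instead they were 35.5 for Hic1 and 36.7 for Dusp6 (IDH1mut) and 28.4 and 29.9 (R-2HG), and with windows that do not overlap 33.5 and 36.7 (IDH1mut) and 27.9 and 29.8 (R-2HG). Under the opposite sign reading they were -31.9, -31.9 and -36.7 points for IDH1mut and -27.5 and -29.9 for R-2HG. With both IDH1wt tables taken with the same sign, subtraction gave -63.0 and -60.7 points at Hic1 and -66.5 and -66.6 at Dusp6. The changes follow from the construction of each alternative. No paired analysis was possible because the tables hold no values per library, and leaving out a replicate was not run for the same reason.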
